A study of Oryza sativa with 2 samples.

Results

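Well-paired predicted miRNA targets without cleavage reads were taken from a degradome of the rice mesocotyl, the stem-like organ that lifts a grass shoot through soil. A member was a listed pair of a transcript and a small RNA named with lower-case miR and a number. Its alignment score was 2.5 or lower, it was marked as not detected, and its transcript had no detected pair of any kind. The score is a mispairing penalty in the deposited table, so that 0 is the best pairing and 4 the weakest listed. By this rule 595 pairs were members, of 990 pairs with such a score and 25653 listed pairs in all. They covered 508 regions on 410 transcripts of 260 genes, a region being a stretch of 1 transcript, and involved 138 small RNAs of 66 miRNA numbers. Another 339 well-paired pairs had reads, on 66 genes, and 56 had none but lay on transcripts with reads at another pair. The members were chosen by the absence of reads, so every count of silent against detected targets below is a description, with no test.

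The series holds 1 library per condition, both from mesocotyls of the indica cultivar P25. The light library, L_1h, came from seedlings kept for 5 days in the dark and then given 1 h of light, and the dark library, D_5d, from seedlings kept for 5 days in the dark. These conditions follow the titles and the treatment text, while a growth text common to both samples mentions the hour of light for each. Both groups carry the genotype of the cultivar with no transgene or mutation named in the labels. The read totals inferred from the deposited values were 34051452 in the light library and 15422946 in the dark library. No tissue marker could be checked, because the table gives reads at predicted cut positions and no transcript level.

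A plant miRNA guides an ARGONAUTE protein to a transcript with a nearly complementary site and the protein cuts it opposite bases 10 and 11 of the miRNA. The 3′ fragment left behind carries an uncapped 5′ end, which degradome sequencing captures. A site gives fragments only where the transcript and the miRNA occur in the same cells, so a predicted site without reads may lack either partner or be cut too rarely for the depth, and which of these holds was not tested. Fewer cells of a type and less RNA per cell cannot be told apart in such bulk samples. Conserved miRNAs mostly target transcription factors such as SPL, GRF and GRAS proteins, while others act on nutrient transport and copper proteins. "Silent" is used here only for the absence of listed reads.

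The small RNAs that carry the results are given 5′ to 3′ as the deposited table has them, with bases 2 to 8, the seed, in capitals and T in place of U. Marks added to the end of a name record end and base changes relative to the named miRNA. The first set paired with silent genes of known target classes.
osa-miR395b_L-1: tGAAGTGTttgggggaactc
osa-miR396d_R-2: tCCACAGGctttcttgaac
osa-miR156a: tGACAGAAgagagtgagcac
osa-miR159c_R-1: aTTGGATTgaagggagctcc
osa-miR171h_L-1R+1: tGAGCCGAaccaatatcactc
osa-miR408-3p: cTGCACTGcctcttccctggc
osa-miR2118e: tTCCCAATgcctcccatgccta
The next set shows the opposite arms of the miR160 and miR169 precursors, which paired at separate places of the same silent transcripts.
osa-miR160a-5p: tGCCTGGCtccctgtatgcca
osa-miR160a-3p: gCGTGCAAggagccaagcatg
osa-miR169r-5p_R+1: tAGCCAAGgatgatttgcctgt
osa-miR169r-3p: tGGCAAGTctcctcggctacc
The last set holds the small RNAs with the most silent genes and 3 short ones that end alike.
aly-miR169h-3p_R-1_1ss17AT: gGCAGTCTccttggcttt
osa-miR818a_L-1R+3_1: aTCCCTTAtattatgggacggagg
osa-miR818a_L-1R+3_2: aTCCCTTAtattatgggacggatg
osa-miR818a_L+2_1ss7CA: aAAATCACttatattatgggacgg
osa-miR5072_L-4_1ss12CT: tCCCCAGTggagtcgcca
bdi-miR5054_1ss11CG: tCCCCACGgtgggcgcca
ath-miR8175_L-2_1ss3TA: aCCCCGGCaacggcgcca
Silent pairs were spread over many seeds. The seed TCCCTTA was shared by the first 2 miR818 forms shown, with 109 silent and 16 detected pairs. The miR159 seed TTGGATT was shared by 5 small RNAs, with 20 silent and 5 detected pairs. The miR396 seed CCACAGG was shared by 2 small RNAs, with 4 silent and 27 detected pairs, the opposite balance.

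The first comparison asked how often pairs of each score had reads. Detection did not rise steadily with better pairing, and the shares at scores 0 and 0.5 were the lowest of all score steps, although their intervals overlapped those at scores 3.5 and 4. Reads were listed for 34.2% of all well-paired pairs, 19.8% of pairs with a higher score, 22.0% of miR pairs of any score and 12.7% of all listed pairs. At score 0, 73 of 82 pairs were silent and 9 (11.0%, 95% Wilson interval 5.88 to 19.6) were detected. At score 1 the detected share was 45.1% (38.1 to 52.3) of 184 pairs, and at score 2 it was 41.6% (36.6 to 46.8) of 356 pairs. At score 4 it was 16.4% (15.2 to 17.7) of 3348 pairs. The intervals cover counting error only and are too narrow, since transcript versions share reads and variants of a miRNA share sites.

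**Figure D1:**
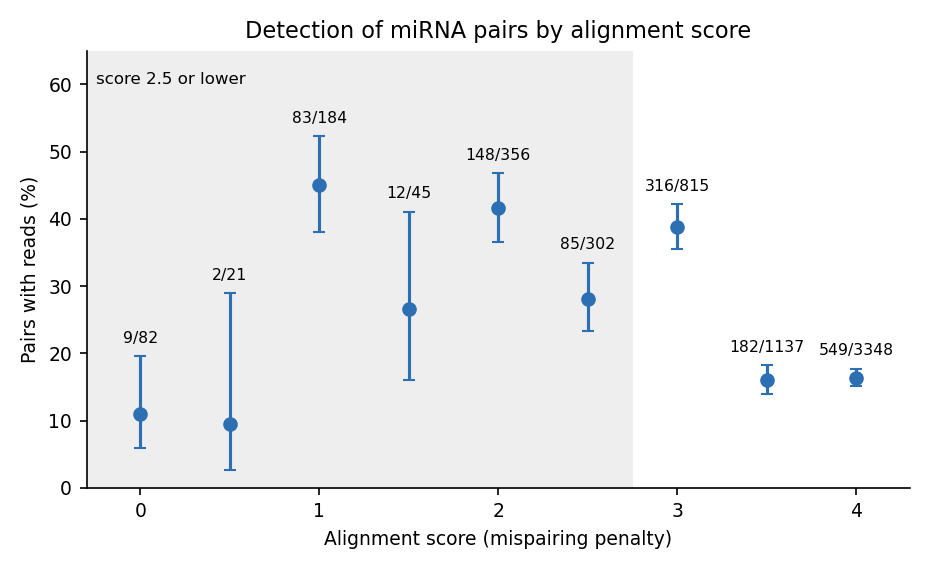
Share of miRNA pairs with reads in at least 1 library (percent, y axis) against alignment score (x axis), with 95% Wilson intervals and the number of detected pairs over all pairs. The grey area holds the scores of 2.5 or lower, where the share is 11.0% at score 0 and 45.1% at score 1.

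At score 0 the silent genes belonged to many miRNA numbers and the detected genes to 1. Of 31 genes with such a pair 26 were silent and 5 were detected. The 5 detected genes were all growth-regulating factor (GRF) genes paired with miR396, namely GRF10, GRF4, GRF1, GRF3 and GRF5. GRF5 had 120 raw reads in the light library and 22 in the dark library, GRF10 had 83 and 42, and GRF3 had 83 and 26. The 26 silent genes belonged to 18 miRNA numbers, 7 of them to miR818 and 12 to miRNA numbers with a known target class. Taking each gene at its best score, 5 of 31 genes were detected at score 0 (16.1%), 25 of 52 at score 1 (48.1%) and 16 of 128 at score 2.5 (12.5%).

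On the edge of the rule, score 2.5 held 205 silent pairs of 124 genes beside 85 detected pairs (28.1% of 302). Just outside it, score 3 held 476 pairs that would be silent by the same rule, of 270 genes, beside 316 detected pairs (38.8% of 815). Silent pairs were thus common on either side of the limit.

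The second comparison set the silent targets of each miRNA number against all pairs of the same number and score. Of 70 numbers with a well-paired pair, 48 had no detected one, and their silent genes numbered 130. Of these 48 numbers, 25 had reads at weaker pairs above score 2.5 and 23 had none at any score. Only 4 numbers had no silent target: miR393, which acts on auxin receptor genes, with 12 of 12 pairs detected, miR827 with 5 of 5, miR162 with 2 of 2 and miR528 with 1 of 1. The miR827 pairs lay on 1 gene with no more than 1 read in the light library and 0 in the dark library. In all, 366 silent pairs (61.5%) lay in a combination of number and score without a detected pair, and 229 lay beside detected pairs of equal score. Among the 18 numbers with both kinds of gene, the best silent score was lower than the best detected score in 11, equal in 5 and higher in 2. A best score tends to be lower in the larger group, and the groups were unequal. Of the 11, miR169 had 43 silent and 2 detected genes and miR818 29 and 6, but miR160 and miR164 had 2 and 5 each. These counts therefore do not show that silent sites pair better in general.

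Numbers with a known target class, taken here from a fixed list of 29 numbers, had reads more often. Of their 541 well-paired pairs 210 were silent and 295 were detected (54.5%, 50.3 to 58.7), and of their 145 genes 92 were silent and 50 (34.5%) detected, where 19.8% of all well-paired genes were detected. The remaining 45 numbers, called less conserved here, had 385 of 449 pairs silent and 44 detected (9.80%, 7.38 to 12.9), with reads for 16 of 188 genes (8.51%). They are those outside the list and can have known targets too, as miR820 does, with 7 of its 8 pairs detected. The median score of silent pairs was 2 in both sets and over all well-paired pairs. A large part of the silent class genes, 41, came from 1 small RNA, the 18-nt miR169h-3p variant shown above. Without it 51 class genes were silent and 48.1% of 104 were detected.

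**Figure D2:**
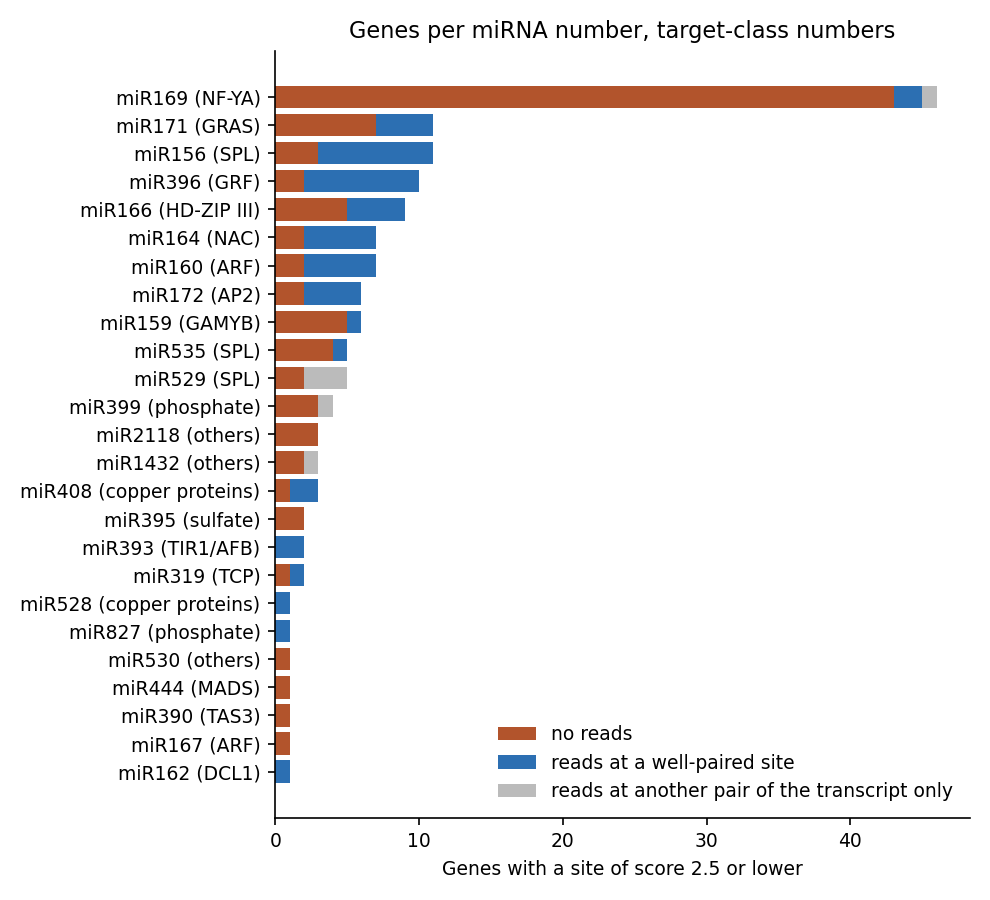
Genes with a site of score 2.5 or lower (number, x axis) for each miRNA number with a known target class, split into genes without reads, genes with reads at a well-paired site, and genes with reads only at another pair of the transcript. miR169 has 43 silent genes and miR393 has none.

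Most genes paired with miR396 and miR156 had reads. Among miR396 targets, 2 of 10 genes were silent and 8 were detected. Both silent genes carry the symbol GRF2, of a class that promotes cell proliferation in growing organs, and both paired without penalty. In ZS06g0118800 the pairing spanned positions 416 to 434 of the transcript, and in ZS06g0451200 positions 78 to 96. Neither had a read in the light or the dark library, whereas 9 of the 11 miR396 pairs of score 0 did (81.8%). Among the genes paired with miR156, whose SPL targets time growth phases, 3 of 11 genes were silent and 8 were detected. The silent SPL7 (ZS04g0659600) paired with 8 miR156 variants, at a best score of 1 with osa-miR156a, ending at position 837, and had 0 reads in either library. Of the 6 detected genes at the same best score, SPL16 had the most reads, 365 in the light library and 142 in the dark library. SPL4 had 4 in the light library and 8 in the dark library, and SPL17 had 9 and 2. In all, 24 of the 26 miR156 pairs of score 1 were detected (92.3%). The other silent miR156 genes, ZS09g0278800 and ZS05g0545600, have no symbol and paired only with 3p-arm forms, at scores 2 and 2.5. In rice miR529 targets SPL genes too, and 0 of its 7 well-paired pairs had reads, while 30 of its 143 weaker pairs (21.0%) did. Of these 7 pairs, 4 lay on SPL4, SPL17 and SPL19 transcripts, which had reads at miR156 pairs. The 3 silent ones lay on CSLC2 (ZS09g0288100, score 2) and XTH28 (ZS10g0031200, score 2.5), by symbol cell wall polysaccharide enzymes. miR535, the remaining SPL number, had 4 silent genes without a symbol among the 5 it paired with. Its detected gene was RPL18, a ribosomal protein gene, with 1 read in the light library and 0 in the dark library.

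Of 6 genes with a well-paired miR159 site 5 were silent and 1 was detected, where 19.8% of all well-paired genes were detected. GAMYB proteins, MYB activators in gibberellin signalling, are its textbook targets. GAM1 copies ZS01g0126800 and ZS05g0509650 paired with 5 miR159 variants each, at a best score of 1 at positions 639 to 658 and 2258 to 2277, and had 0 reads in either library. None of the 6 miR159 pairs of score 1 was detected. GAM1 ZS01g0670800 had a weaker best score, 2.5, with 105 reads in the light library and 50 in the dark library. Of the 3 well-paired genes with this symbol, the detected one had the weakest best score. With osa-miR159f_R-1, the only variant well paired with the detected gene, all 3 genes paired equally, at 2.5. Others with this symbol were detected at score 3, above the limit, with 9 reads in the light library and 7 in the dark library in ZS03g0483400, and with 12 and 10 in both ZS06g0527600 and ZS06g0528400, which may share them. Of 25 well-paired miR159 pairs 5 were detected, and of its 158 weaker pairs 55.7%. Also silent was GLU5 (ZS01g0120400, score 2), an endoglucanase gene by symbol. ZS01g0122200 held overlapping silent pairs of miR159 (2.5) and miR319 (0). TCP genes, the class of miR319, had reads in PCF6 (score 1.5), with 20 in the light library and 8 in the dark library.

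The miR171 genes, 7 silent and 4 detected, differed only in part by miRNA variant. NSP2 (ZS03g0158600), a GRAS gene known from legume nodulation signalling, paired at score 0.5 with osa-miR171h_L-1R+1 at positions 754 to 774 and had no read in either library. The same miR171h form paired without penalty with 5 transcript versions of Tubgcp5 (ZS04g0673800), a gamma-tubulin complex gene by symbol, also without reads. None of its 6 pairs was detected, while osa-miR171b had 6 of 7 detected. AKRP (ZS03g0040700), an ankyrin repeat protein gene, was silent at score 0 and held the 1 silent pair of osa-miR171b. SCL6 genes, GRAS regulators of shoot development, made up all 4 detected genes. SCL6 ZS04g0662300 paired at score 1 and had 284 reads in the light library and 65 in the dark library.

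**Figure D3:**
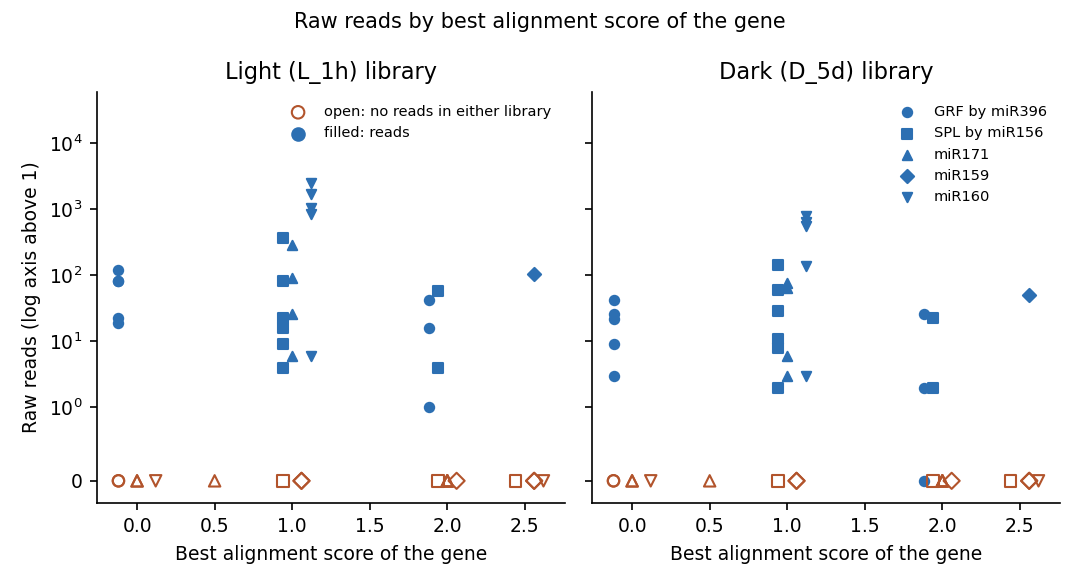
Raw reads of each gene in the light library (left) and the dark library (right) on a y axis that is logarithmic above 1, against the best alignment score of the gene for miR396, miR156, miR171, miR159 or miR160. Open symbols are silent genes at 0 reads, filled symbols genes with reads; points of different miRNAs are shifted sideways for clarity and points can coincide. The GRF genes of score 0 with reads range from 19 to 120 in the light library.

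For the numbers that target auxin response, organ boundary, polarity and flowering genes, the silent genes carried no symbol or one outside the target class, and the detected ones symbols of the class. The 2 silent miR160 genes, ZS03g0726700 (score 0) and ZS09g0333200 (2.5), have no symbol. The 5 detected ones were ARF genes, led by ARF18 with 2555 reads in the light library and 786 in the dark library at score 1. The silent miR164 genes were the unnamed ZS02g0668700 (score 0) and BLT ZS04g0756100 (2.5). The 5 detected ones were NAC genes, and NAC021 ZS06g0612500 at score 1 had 185 reads in the light library and 72 in the dark library. The 5 silent miR166 genes have no symbol, and ZS02g0616500 and ZS12g0533100 paired at score 1. The 4 detected genes were HD-ZIP III genes, the polarity regulators, with HOX9 at 376 reads in the light library and 161 in the dark library. HOX10 was listed with nearly the same reads, 375 in the light library and 160 in the dark library, so the 2 genes may share reads and their levels are uncertain. The best score of HOX9 was 2. None of the 4 miR166 pairs of score 1 was detected, against 16 of 19 at score 2 (84.2%). The 2 silent miR172 genes, At2g19130 (ZS04g0336000) and ZS05g0559100, stood at 2.5, and the 4 detected ones were AP2 genes. For miR167 the only well-paired gene, ZS06g0598900, was silent at score 0, while ARF12 and ARF25, of the class miR167 is known for, had reads at score 4. ARF12 had 14 reads in the light library and 10 in the dark library.

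Nutrient and metal classes were silent in part. miR395 acts on sulfate uptake and assimilation, and its 2 well-paired genes carry sulfate transporter symbols. ST3 (ZS03g0090300) paired without penalty at positions 401 to 420 and SULTR2;1 (ZS03g0090200) at score 1 from position 377. Both had 0 reads in either library, and the 3 detected miR395 pairs were weaker ones on MSBP1 and on a gene without a symbol. miR399, known for phosphate homeostasis, had 0 of 15 well-paired pairs detected. Its silent genes were PCMP-H42 (ZS01g0462000, score 2), TSS (ZS04g0773000, 2.5) and CAJ1 (ZS05g0553100, 2.5), none of them a phosphate gene by symbol. Among copper-linked targets, LPR1 (ZS01g0032900), a multicopper oxidase gene in Arabidopsis, was silent at score 1.5 with miR408-3p at positions 1222 to 1242. The unnamed miR408 target ZS03g0155600, at score 1, had 14 reads in the light library and 15 in the dark library.

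For miR2118, miR1432, miR390, miR444 and miR530 no well-paired pair had reads. miR2118, known in grasses for phased small RNAs in reproductive tissue, had no read at any of its 14 well-paired or 45 weaker pairs. It was the class number with most pairs and none detected. Its silent genes were ZS11g0171100 (score 0), BAT1 (ZS04g0521300, score 2) and RGA1 (ZS10g0072900, 2.5). miR1432 had 0 of 13 well-paired pairs detected and 31.8% of 44 weaker ones. ACA8 (ZS04g0736600), a calcium pump gene by symbol in Arabidopsis, was silent at score 2, and SBT1.8 (ZS07g0477700), a subtilase gene, at score 0. Single silent genes were MSL1 (ZS02g0106800, score 2) for miR390, UGT83A1 (ZS03g0706800, 2.5) for miR444 and EL5.1 (ZS02g0168200, 2.5) for miR530. Of weaker pairs, 21 of 74 had reads for miR530, 1 of 68 for miR390 and 0 of 1 for miR444. The well-paired listing held no pair of miR168, miR394, miR397 or miR398.

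A feature that the rule did not use was found at score 0. In 12 of 410 silent transcripts, from 8 genes, 1 miRNA number paired at 2 or more separate places. This was the case in 1 of 151 detected transcripts, a miR812 target. Transcript versions of a gene are not independent, and over genes these were 8 of 260 silent and 1 of 66 detected genes. With so few cases, no difference between silent and detected genes is read from them. All 8 genes were among the 26 silent genes with a pair of score 0. Only 5 detected genes had a pair of that score, all with miR396. In 5 genes the best-paired small RNA of both places had a named arm, and the 3p place lay upstream of the 5p place in each. In ZS03g0726700, miR160a-3p paired at positions 94 to 114 and miR160a-5p at positions 205 to 225. In ZS03g0817500, miR169r-3p and miR169r-5p forms paired without penalty 50 nt apart. In ZS06g0598900, miR167e-3p and miR167d-5p paired without penalty 140 nt apart, and in SBT1.8 the miR1432 arms did so 55 nt apart. XA21 (ZS02g0493000), by symbol a receptor kinase of bacterial blight resistance, held both miR3980a arms 95 nt apart. AKRP held miR171 forms 54 nt apart, SIGA (ZS08g0068100), a plastid sigma factor gene by symbol, miR2275 forms 155 nt apart, and ZS11g0171100 3 miR2118 places. As background, a miRNA precursor carries its 5p arm before its 3p arm, and the opposite strand of such a locus carries their complements in reverse order. Whether these transcripts run opposite to precursor loci was not tested. The feature, XA21 and SIGA were picked after the values were seen.

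**Figure D4:**
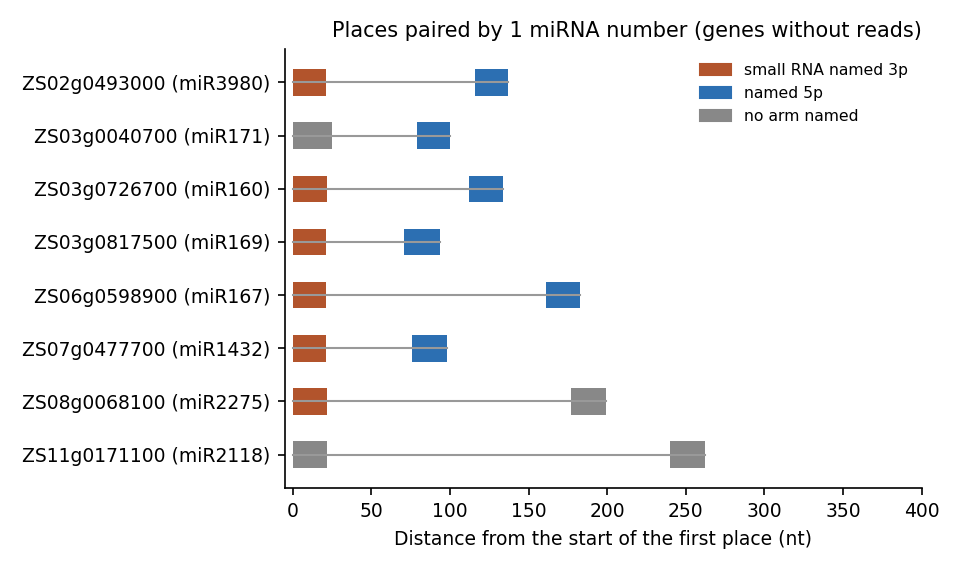
The first 2 places paired by 1 miRNA number on 1 transcript of each of the 8 silent genes, as distance in nt from the start of the first place. Colour gives the arm in the name of the best-paired small RNA. The 3p place is upstream in each of the 5 genes where that name gives an arm at both places.

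Less conserved numbers held most silent genes. miR818 had 29 silent genes of 38, on 72 transcripts, and 6 detected ones, near the 19.8% detected over all well-paired genes. SPL1 (ZS01g0209100), a squamosa promoter-binding gene by symbol, was silent at score 0 on 7 transcript versions, and the unnamed ZS01g0703200 on 1. None of the 30 miR818 pairs of score 0 was detected, and 11.2% of its 187 well-paired pairs were, close to 10.8% of its 185 weaker ones. Its best-paired detected gene, ZS01g0710800 at score 0.5, had 1 read in the light library and 0 in the dark library. miR5825 had no detected pair among 17, with TUF11 (ZS07g0404900) silent at score 0 and CTR1 (ZS02g0386000), a kinase of ethylene signalling in Arabidopsis, at score 2. miR2120 had none among 10, with SGT1 (ZS01g0378300), a co-chaperone gene of plant immunity, at score 0 and ZS04g0773500 at 1.5. For miR1871, with none among 11, ND1 (ZS01g0388900), a NADH dehydrogenase subunit gene, and ZS04g0127300 stood at score 2. Of pairs above score 2.5, 12 of 118 had reads for miR1871, 1 of 33 for miR5825 and 0 of 7 for miR2120.

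Detected shares differed with the length of the small RNA. Of pairs with 18-nt small RNAs 8 of 106 were detected (7.55%, 3.87 to 14.2), and of those with 24-nt ones 22 of 240 (9.17%, 6.13 to 13.5). For 19, 20 and 21 nt the shares were 78.3%, 58.5% and 46.2%. The 19-nt group held only 2 small RNAs, and its 18 detected pairs were all of osa-miR396d_R-2. At 22 nt the share was 28.0%. Length and target class were not independent: all 240 pairs of 24 nt belonged to less conserved numbers. Of these 240 pairs, 187 were of miR818, with 21 of the 22 detected ones. The 24-nt share is thus largely that of miR818. At 21 nt 61.0% of 259 pairs of class numbers were detected and 6.25% of 96 pairs of the less conserved numbers. At 22 nt the order was the other way, with 24.2% of 66 class pairs and 43.8% of 16 less conserved pairs. The 7 detected less conserved pairs were all of osa-miR820a_R+1 with versions of 1 gene, DRM2, listed with the same reads. The order at 22 nt thus rests on 1 small RNA and 1 gene. At 18 nt 0 of 44 class pairs were detected, and all 44 were with the miR169h-3p variant. That variant alone paired with 41 silent genes, among them ZS04g0437900 and ZS09g0270200 at score 2, and no detected one. Without it miR169 had 2 silent and 2 detected genes, with NFYA10 (ZS12g0498400), a CCAAT-binding subunit gene, at 553 reads in the light library and 293 in the dark library. The silent one with the best score was ZS03g0817500. The 3 short forms of miR5072, miR5054 and miR8175 shown above and another miR5072 form end in CGCCA (the given strand only). They are the 4 small RNAs with this ending among the 154 with well-paired pairs (2.60%). These 4, all of 18 nt, paired with 27 genes, 25 of them silent, while over all 18-nt small RNAs 80 of 82 genes were silent. Their 41 pairs held all 8 detected pairs of 18 nt, so the ending did not go with less detection at that length. Examples were ZS08g0380700 (miR5072, score 0), ZS05g0178100 (miR5072, score 1), and ZS01g0192500 and ZS04g0385500 (miR5054, score 2). The 2 detected genes were CYP90A1 copies, by symbol a brassinosteroid synthesis enzyme, each with 5 reads in the light library and 0 in the dark library, which the copies may share. The ending was looked up after the sequences were seen.

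**Figure D5:**
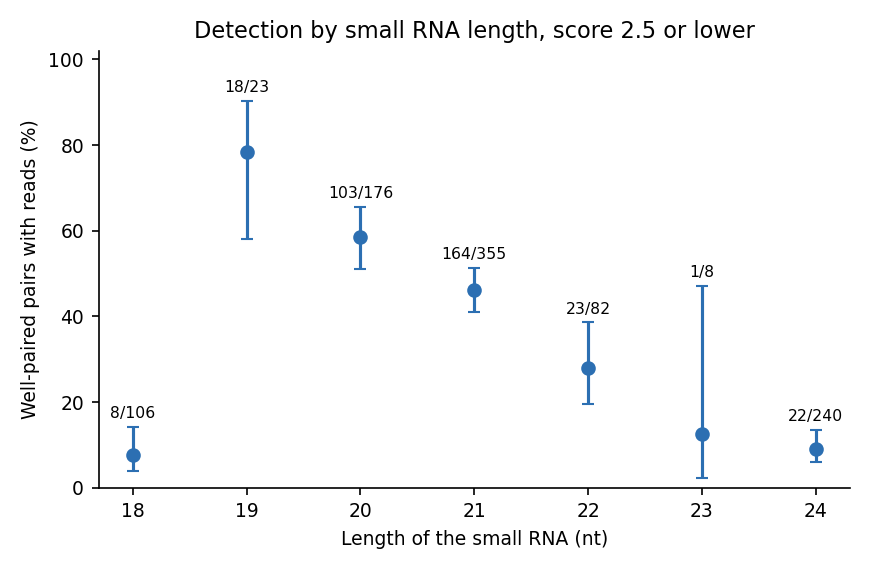
Share of well-paired pairs with reads (percent, y axis) by length of the small RNA in nt (x axis), with 95% Wilson intervals and detected over all pairs. The share is 7.55% at 18 nt, 46.2% at 21 nt and 9.17% at 24 nt, where 187 of the 240 pairs are of miR818.

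Silent genes less often carried a symbol in the deposited annotation. Of 260 silent genes 132 (50.8%) had no symbol, against 6 of 66 detected genes (9.09%). Most of the 41 silent genes of the miR169h-3p variant had none, and the counts are not given without it. The deposited class for transcription held 8 silent genes (3.08%) and 31 detected genes (47.0%), and that for replication, recombination and repair 17 (6.54%) and 1 (1.52%). The exact shares over all well-paired genes are not given. Since 260 of these 333 genes were silent, the shares over all lie nearer those of the silent genes. The detected genes thus depart from them more. A silent gene paired with a single small RNA in 209 cases (80.4%), a detected gene in 28 (42.4%). Names with change marks made up 73.6% of silent pairs and 53.7% of detected pairs.

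DRM2 (ZS03g0018400) and ZS03g0743900 were the only genes with a silent transcript and a detected pair on another transcript version. DRM2, a de novo DNA methyltransferase gene and a known miR820 target in rice, had 7 versions with 5 reads in the light library and 2 in the dark library, and 1 silent version, all at score 2.5. ZS03g0743900, silent with miR1862 at score 1, had 1 read in each library at another small RNA. Both genes were singled out after their values were seen.

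The third comparison set the libraries side by side. Reads were listed for 332 of the 990 well-paired pairs in the light library (33.5%, 30.7 to 36.5) and for 288 in the dark library (29.1%, 26.3 to 32.0). Over genes these were 65 of 333 (19.5%) in the light library and 53 (15.9%) in the dark library. Thinned to the dark read total, the light library would be expected to have 59.1 such genes. The genes with reads in the light library alone numbered 13, with 1 to 16 reads and 6 of them with 1 read, and 1 gene, an AP2 gene, had its single read in the dark library alone. GRF6, with 16 reads in the light library and 0 in the dark library, was the only light-library gene of this kind with more than 12 reads. By the light library alone 262 genes would be silent, and by the dark library alone 275, against 260 by both. With 1 library per condition no test between the conditions was made.

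Depth limits what a silent target shows. A silent pair has a blank in the table, read here as 0, and whether reads were filtered before a pair was marked is not stated. Taken as a count of 0, it allows up to 3 reads, for counting error only. TPB gives normalized reads relative to the library total on the authors' scale. Where normalized and raw reads are equal, 3 reads are 88.1 TPB in the light library and 195 TPB in the dark library. A raw read can also stand for less, as in HOX29, with 1 raw read and 9.79 TPB in the light library. Taking each detected gene at its pair with most raw reads, the genes had a median of 21.5 reads in the light library and 13 in the dark library, with up to 2667 in the light library and 786 in the dark library. Of the 66 detected genes 13 had no more than 3 reads in either library and so lay within what a silent gene could have.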

How the data were processed

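The deposited first sheet lists pairs of small RNAs and transcripts of 2 degradome libraries, and 1 blank line that was skipped. The raw counts, deposited by the authors as whole numbers, are of reads that begin at the cut, per the file headers, and a blank cell was taken as 0. The authors' normalized reads and TPB are a signal; TPB equals normalized reads times 1 constant per library, whose inverse gave the library totals. The deposited alignment score, degradome category and p-value per pair are the authors' own, and the p-values were not used. Headers that name the dark library with 1 h were read as D_5d, since its TPB is those reads times the constant. For the alignment, target prediction and genome build the sources used here name nothing. The deposited auxin and cell wall sheets, with 20 columns of values per sample, were not used.

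Genes were formed from transcript versions, and none of the gene identifiers matched the RefSeq gene table, so sites are positions on transcripts and symbols are those deposited, several of which look borrowed from other species. A gene's reads are those of its well-paired pair with most reads in each library. A detected pair is one marked so in the table, and all had the cut opposite base 9, 10 or 11. Shares have 95% Wilson intervals (scipy 1.17.1, Python 3.11.15), and no test was made. Reads copied by PCR and lacking molecular identifiers do not count molecules, so intervals and the floor of 3 reads cover counting error only. The selection and the intervals were tested on simulated data. Named genes are, for each class number, up to 3 silent genes with the lowest score (ties by identifier), up to 2 for the 5 other numbers with most silent genes (6 with ties), and the best-paired detected gene (ties by most raw reads, so these stand at the upper end of their number). Any other gene named was singled out after its values were seen. Members, lists and the rule were chosen with earlier results of these data known. Alternatives changed the score limit, the unit, the names, the read minimum and the library.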

Additional observations from a re-analysis of the deposited data

How the results depend on the processing

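The counts of silent targets follow the score limit by construction. At a limit of 2 there were 390 silent pairs, 149 silent genes and 36 silent genes of class numbers, and at a limit of 3 there were 1071, 493 and 170. With unmarked names only, 157 pairs, 87 genes and 34 class genes were silent, 28 numbers had no detected pair, and 47.3% of pairs were detected. Detection by the dark library alone took the detected share to 29.1%, and counting transcripts in place of pairs to 25.8%. Without the miR169h-3p variant 51 class genes were silent. The cause of these shifts was not tested beyond the smaller or larger set that each choice leaves. All other alternatives run, namely silence per gene, at least 2 reads, either library alone for the counts, genes in place of pairs and the thinned light library, stayed within 1.5 times the count or within the interval of the share. The class counts and the runs without the miR169h-3p variant were added after the data were seen. No paired analysis was possible because each condition has 1 library.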

Other observations

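The 56 undetected well-paired pairs on transcripts with reads lay on 21 genes. Among them were 12 pairs of miR172 on AP2 genes and 8 of miR1432 on ZS02g0090200, whose versions carry the symbols ACA8 and ACA10.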
